A study of Mus musculus with 6 samples.

Results

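The 39 genes described here are interferon-stimulated genes, together with receptors, sensors and signal proteins of the type I and type II interferon response. They were chosen by symbol, from a list of known interferon genes, out of 23225 gene symbols in the deposited count table. All 39 matched a row and all 39 passed the filter on low counts that left 15958 genes for testing. RNA-seq was made of tumour-associated dendritic cells that had been sorted, at day 23, from mice bearing ID8, a transplantable line of mouse ovarian surface epithelium whose tumours spread over the peritoneum and fill it with ascites. The mice had a C57BL/6 background and were either wild type (WT, 3 libraries) or carried a conditional knockout of XBP1 restricted to CD11c-positive cells (XBP1-KO, 3 libraries). The labels name no Cre driver and no age. They say that RNA was isolated separately for the 3 samples of a genotype but not that each came from its own mouse, and p-values therefore reflect only how these samples spread, which may be technical. XBP1 is the transcription factor made active when the ER stress sensor IRE1 splices its mRNA. The columns of the tables carry no replicate number, so the libraries of a genotype are called a, b and c in column order and the letter pairs nothing.

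Type I interferons signal through the receptor chains IFNAR1 and IFNAR2 to a complex that holds STAT2 and IRF9 and binds the interferon-stimulated response element (ISRE) in promoters. Interferon gamma signals through its own receptor to promoters that hold the gamma-activated sequence (GAS). In dendritic cells the products of these genes sense viral RNA, block viral replication and promote antigen presentation, and type I interferon sensing by dendritic cells is known to help prime T cells against tumours.

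Promoter sequences show the elements through which many of these genes are known to respond. Since the list was chosen as known interferon genes, a high share of these motifs follows from the choice and is given as a description. RefSeq promoters of the mouse assembly GRCm38.p6, from 250 bases before to 50 bases after a gene's start, were at hand for 32 of the 39 genes. An ISRE was searched as GAAA, any 2 bases and GAAA again, which reads TTTC, any 2 bases and TTTC on the other strand. It stood in the promoters of 18 of these 32 genes (56.2%), against 1079 of all 27025 genes with a promoter (3.99%). The GAS letters TTCNNNGAA, which read the same on both strands, stood in 10 of the 32 (31.2%) against 2582 of the 27025 (9.55%). There were 4 genes with both and 8 with neither. In Bst2 the matches of both kinds overlap, since the GAS match ends 128 bases before the start and the first of 2 ISRE matches begins 130 bases before it. The stretches below are printed because they belong to genes with an unadjusted p under 0.05 in the genotype comparison (Ifih1, Ddx58, Bst2, Ifnar2) or near it (Stat2, Gbp2), to Ifi205, whose level differed much between libraries, and its relative Ifi203, or to widely used interferon readouts (Isg15, Ifit1, Irf1), with the match in capitals, 5′ to 3′ on the gene's own strand.
Ifih1, minus strand, chr2:62646206-62646233, ISRE: gaagagaatcGAAACAGAAAccgatctg
Ddx58, minus strand, chr4:40239804-40239833, ISRE: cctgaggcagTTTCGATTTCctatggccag
Bst2, minus strand, chr8:71537577-71537606, ISRE: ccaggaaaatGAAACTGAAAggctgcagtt
Ifi205, minus strand, chr1:174031870-174031899, ISRE: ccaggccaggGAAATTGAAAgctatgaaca
Ifi203, minus strand, chr1:173942508-173942537, ISRE: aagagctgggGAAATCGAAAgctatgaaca
Isg15, minus strand, chr4:156200871-156200900, ISRE: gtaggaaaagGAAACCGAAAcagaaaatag
Ifit1, plus strand, chr19:34640794-34640823, ISRE: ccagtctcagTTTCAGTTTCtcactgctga
Stat2, plus strand, chr10:128270266-128270295, ISRE: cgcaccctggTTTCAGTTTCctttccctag
Gbp2, plus strand, chr3:142620594-142620623, ISRE: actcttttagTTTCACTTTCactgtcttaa
Irf1, plus strand, chr11:53769914-53769942, GAS: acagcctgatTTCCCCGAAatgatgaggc
Ifnar2, plus strand, chr16:91372559-91372587, GAS: tgccaaggccTTCCTGGAAgaagagagta
The matches of Ifih1 and Ddx58 begin 33 and 3 bases after the start of the gene, and the other stretches lie before the start. A match is a description of these letters and shows no binding. The 18 genes with an ISRE match had a median log2 fold change of -0.13, with 14 of them lower in XBP1-KO, and the 14 genes with a promoter but no ISRE match had a median of 0.03, with 6 lower. These medians were not compared by a test.

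The 6 libraries held between 26946349 and 32709100 counts. On the second principal component of all tested genes, with 25.9% of the variance, libraries WT b and XBP1-KO b lay at 32.5 and 23.4 and the other 4 between -26.9 and -3.67. The 39 genes are therefore also described without these libraries. Levels are given in CPM, the count scaled to the size of its library after TMM normalisation. Xbp1, the targeted gene, had 67.2, 48.7 and 76.8 CPM in WT against 32.5, 30.9 and 40.4 CPM in XBP1-KO. The ranges did not overlap, and edgeR's quasi-likelihood model gave 0.0545 as the adjusted p, above the threshold of 0.05 used throughout, while 6 of 17 alternatives gave a value below it. Counts per gene do not separate Xbp1 transcripts with and without the deleted part, so this checks the labels only in part. Markers of the labelled cell type were present, with all 11 dendritic cell markers detected in every library (3 higher, 8 lower, none called). Their sum was mostly Cd74, which other antigen-presenting cells share, and without it was 4832 to 6961 CPM in WT and 3919 to 6772 CPM in XBP1-KO. Most of this rest was H2-Ab1, which such cells share as well, and Cd209a, with means of 3544 and 1632 CPM in WT. Flt3, Zbtb46, Xcr1 and Clec9a were far lower, with means of 35.9, 8.66, 102 and 22.7 CPM in WT. Also present were macrophage markers, whose summed level of 4703 to 6191 CPM over 9 genes was far above that of any lymphocyte list. Of 7 T cell markers 6 lay higher and 1 was called, and their sum was 30.6 to 35.1 CPM in WT and 52.3 to 81.5 CPM in XBP1-KO. All 6 NK cell markers lay higher and 2 were called, with 76.6 to 105 CPM against 124 to 210 CPM. All 5 B cell markers lay higher, with 130 to 312 CPM against 336 to 487 CPM, as did all 5 neutrophil markers, with 44.9 to 134 CPM against 155 to 237 CPM. Of the 5 monocyte markers 3 lay lower, 2 higher and none was called, and their sum of 3736 to 6143 CPM in WT and 2687 to 2891 CPM in XBP1-KO was mostly Ccr2 and Fn1. The 7 epithelial markers of ID8 cells summed to 125 to 168 CPM and 106 to 186 CPM. None of these lists had a marker at 0 in any library, their part in the results below was not tested, and in such sorted bulk samples fewer cells of a type and less RNA per cell cannot be told apart.

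The genotype comparison asks whether loss of XBP1 in CD11c-positive cells went with a change of the interferon response in tumour dendritic cells. None of the 39 genes passed the test in either direction. Of them, 0 had an adjusted p under 0.05 in edgeR's quasi-likelihood test, and their adjusted p-values ran from 0.214 to 0.981, while 0.445% of all tested genes (71) were called. At an unadjusted p under 0.05 there were 5 of the 39 (12.8%), against 12.9% of all genes. Ifnar2 was the 1 higher gene (2.56%), against 4.59% of all genes, and Ifih1, Ddx58, Bst2 and Parp14 were the 4 lower ones (10.3%), against 8.26% of all genes. By DESeq2 0 of the 39 passed as well, with 7 (17.9%) at an unadjusted p under 0.05 against 9.73% of all genes, and by limma-voom 0, with 6 (15.4%) against 13.8%. A lack of overlap between the genotypes was found for 8 of the 39 (20.5%), against 19.2% of all genes. Of these 2 were higher (5.13%, against 8.8% of all genes) and 6 lower (15.4%, against 10.4% of all genes). In edgeR and by overlap the share in both directions together lay near that of all genes, while by DESeq2 it lay above it. The DESeq2 share of all genes is not like that of edgeR, since DESeq2 was run without the filter on low counts. Without that filter edgeR gave 7 of the 39 (17.9%) against 10.5% of all genes.

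The intervals of the differences, like the p-values, reflect only how these samples spread, which may be technical. For 36 of the 39 genes the 95% interval of the fold change lay inside a 2-fold change in either direction. The same held for 9701 of all 15958 genes. The exceptions among the 39 were Irf7, Ifi205 and Ifi44. The largest estimated difference was that of Bst2, at 0.716 times the WT level. In XBP1-KO, 25 of the 39 genes lay lower (64.1%, against 43.9% of all genes), and the median log2 fold change was -0.08 against 0.06 for all genes. The sign of this median depended on the scaling. With library size alone 19 of the 39 lay lower and their median was 0.0027, while that of all genes was 0.14, so the median of the list lay below that of all genes under both scalings.

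**Figure D1:**
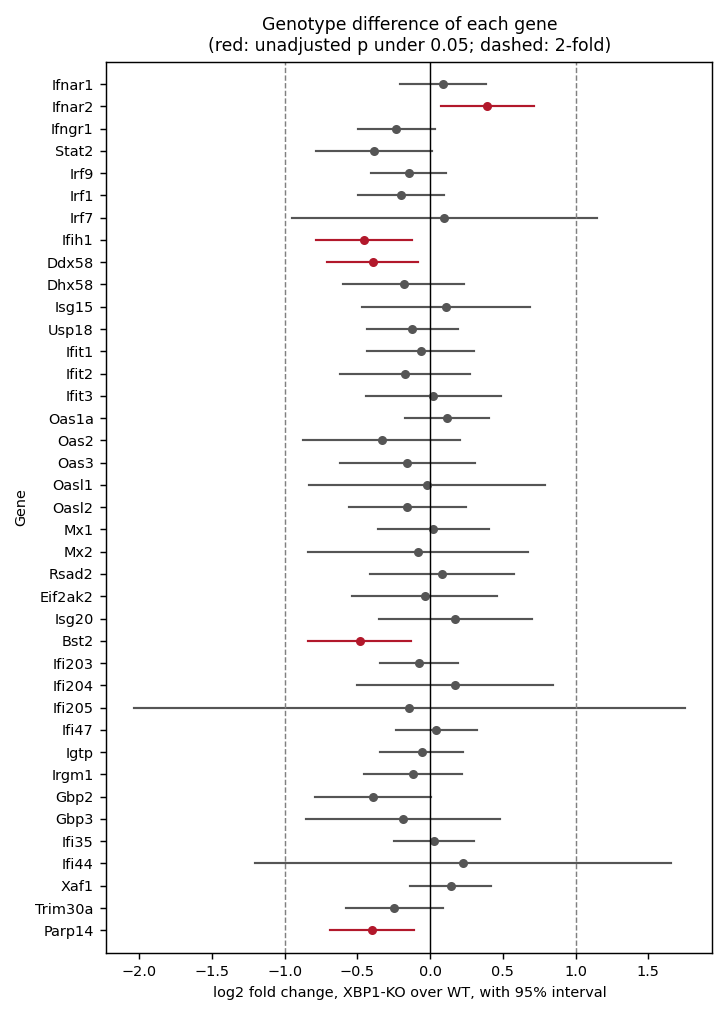
Log2 fold change (XBP1-KO over WT, x axis) of each of the 39 genes (y axis, grouped by role) with its 95% interval from edgeR's quasi-likelihood fit, 3 libraries per genotype. Red marks the 5 genes with an unadjusted p under 0.05, dashed lines mark a 2-fold change, and only the intervals of Irf7, Ifi205 and Ifi44 cross a dashed line.

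Among the receptors, the second chain of the type I interferon receptor was the member that lay higher in XBP1-KO with the smallest p. Ifnar2, the chain that carries most of the binding to interferon, had 22.9, 21.7 and 21.8 CPM in WT and 28.0, 30.5 and 28.6 CPM in XBP1-KO. All 3 XBP1-KO libraries lay above all 3 WT libraries, and the spread within each genotype was small. The fold change was 1.31 (95% interval 1.05 to 1.64) with an adjusted p of 0.278 in edgeR. Its partner chain Ifnar1, whose gene lies on chromosome 16 as well, had 190, 220 and 165 CPM in WT and 197, 225 and 191 CPM in XBP1-KO. The genotypes overlapped for Ifnar1 (fold change 1.06, interval 0.866 to 1.31). Ifngr1, the ligand-binding chain of the interferon gamma receptor, had 540, 617 and 620 CPM in WT and 512, 498 and 502 CPM in XBP1-KO. The groups did not overlap, by a small margin, with a fold change of 0.851 (interval 0.709 to 1.02) and an adjusted p of 0.453.

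The signal proteins and transcription factors below the receptors showed no called change, and 3 of 4 lay lower in XBP1-KO. Stat2, the STAT that is particular to type I and III interferon signalling, had 53.1, 87.3 and 81.9 CPM in WT and 51.3, 65.0 and 53.8 CPM in XBP1-KO. WT a lay within the XBP1-KO range, so the genotypes overlapped (fold change 0.765, interval 0.58 to 1.01, adjusted p of 0.408 in edgeR). Irf9, the DNA-binding partner of STAT2, had 129, 141 and 145 CPM in WT and 128, 127 and 120 CPM in XBP1-KO, without overlap but with WT a and XBP1-KO a nearly equal. Irf1, a factor induced through a GAS by interferon gamma, had 137, 157 and 150 CPM against 111, 150 and 126 CPM, with overlap. Its log2 difference was -0.07 between the libraries b and -0.28 between the other 4. Irf7, which amplifies the production of interferon alpha, had 30.6, 60.1 and 26.6 CPM in WT and 26.1, 62.0 and 37.3 CPM in XBP1-KO. Irf7 thus differed between libraries of 1 genotype far more than between the genotypes, whose means were 39.1 ± 18.3 and 41.8 ± 18.4 CPM (SD, n = 3).

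The 3 RNA sensors all lay lower in XBP1-KO, with a median log2 fold change of -0.40, the lowest of the roles described here. Ifih1 (MDA5), which senses long double-stranded RNA, had 33.7, 44.2 and 42.0 CPM in WT and 30.5, 28.9 and 27.9 CPM in XBP1-KO. The genotypes did not overlap, although WT a lay close to XBP1-KO a, and the fold change was 0.728 (interval 0.58 to 0.916) with an unadjusted p of 0.0104 and an adjusted p of 0.214 in edgeR. Ddx58 (RIG-I), which senses short RNA with a triphosphate end, had 52.2, 54.5 and 52.5 CPM in WT and 36.7, 47.1 and 37.3 CPM in XBP1-KO. Here too all XBP1-KO libraries lay below all WT libraries, with a fold change of 0.76 (interval 0.612 to 0.944) and an adjusted p of 0.259. Within the libraries that stood apart, XBP1-KO b against WT b, the log2 difference of Ddx58 was -0.21, and between the other 4 it was -0.50. For Ifih1 these values were -0.60 and -0.36. Dhx58 (LGP2), a helicase that modulates both sensors, had 41.0, 54.0 and 38.6 CPM in WT and 37.8, 49.3 and 30.7 CPM in XBP1-KO, with overlap.

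**Figure D2:**
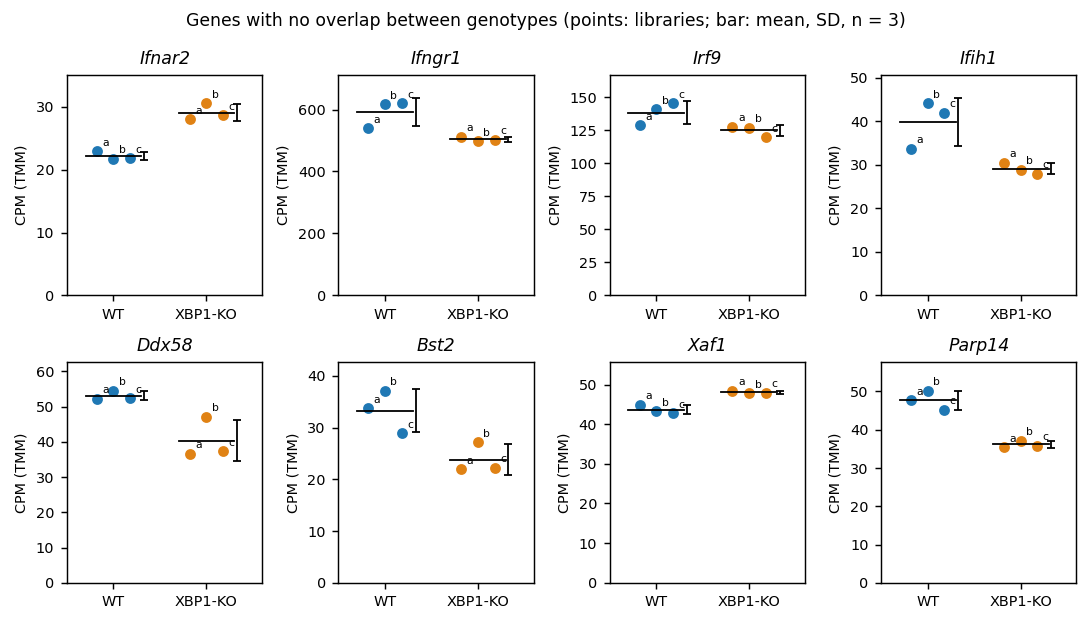
Normalised levels (y axes, CPM after TMM scaling, from 0) of the 8 genes whose values did not overlap between WT (blue) and XBP1-KO (orange). Points are libraries a, b and c, horizontal bars the means and error bars the SD (n = 3). Ifnar2 and Xaf1 lay higher and the other 6 lower in XBP1-KO, none with an adjusted p under 0.05.

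Of the genes that act against viruses none was called, and Bst2 and Parp14 had an unadjusted p under 0.05. Bst2 (tetherin), which holds budding virus at the cell surface and marks plasmacytoid dendritic cells in unstimulated mice, had 33.8, 37.1 and 28.9 CPM in WT and 22.0, 27.2 and 22.2 CPM in XBP1-KO. The ranges did not overlap, though WT c and XBP1-KO b lay near each other, and the adjusted p was 0.219 in edgeR (fold change 0.716, interval 0.56 to 0.914). Of 8 other markers of plasmacytoid dendritic cells 5 lay lower, 3 higher and none was called, and their sum, much of it Tcf4, was 145 to 184 CPM in WT and 136 to 224 CPM in XBP1-KO. The fold changes of the surface receptors Siglech and Ccr9 were 0.733 (interval 0.377 to 1.42) and 0.732 (interval 0.527 to 1.02), with overlap between the genotypes. Those of the 3 higher markers, Tcf4, Spib and Cox6a2, were 1.02 (interval 0.834 to 1.26), 1.28 (interval 0.822 to 2.01) and 5.46 (interval 2.48 to 12.0). The genotypes overlapped for Tcf4 and Spib but not for Cox6a2, which had an adjusted p of 0.0877 in edgeR. The part of these cells in the level of Bst2 was not tested. Parp14, an ADP-ribosyltransferase, had 47.7, 50.2 and 45.2 CPM in WT and 35.5, 37.1 and 35.9 CPM in XBP1-KO. The libraries of each genotype lay close together, with an SD of 2.52 and 0.877 CPM, and the groups did not overlap. Parp14 had a fold change of 0.758 (interval 0.62 to 0.926) and an adjusted p of 0.215. Bst2, Parp14, Ifih1 and Ddx58 lay lower, and Ifnar2 higher, in every one of 17 alternative analyses, none of which gave any of the 39 genes an adjusted p under 0.05.

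The interferon-induced proteins with tetratricopeptide repeats, which bind foreign RNA, lie side by side on chromosome 19. Ifit1 ran from 17.3 CPM in XBP1-KO c to 22.3 CPM in WT b. Ifit2 had 15.0, 26.3 and 19.1 CPM against 17.7, 16.8 and 19.2 CPM, and Ifit3 had 21.5, 18.5 and 18.9 CPM against 26.8, 14.6 and 18.5 CPM. All 3 overlapped between the genotypes, with fold changes of 0.957, 0.886 and 1.02. Isg15, the ubiquitin-like modifier that is a common readout of the type I response, was low, with 5.58, 7.22 and 4.94 CPM in WT and 6.88, 7.56 and 4.70 CPM in XBP1-KO. Its values also overlapped (fold change 1.08, interval 0.721 to 1.61). Usp18, which removes ISG15 and dampens signalling at IFNAR2, had 92.5, 94.2 and 104 CPM against 103, 73.3 and 90.9 CPM.

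The 2-5A synthetases, which turn on the RNA-cutting enzyme RNase L, are encoded together with the related Oasl1 and Oasl2 on chromosome 5. None of the 5 was called and 4 of 5 lay lower, with fold changes from 0.794 for Oas2 to 1.08 for Oas1a. Oas2 had 35.8, 60.0 and 45.8 CPM in WT and 34.7, 50.4 and 27.3 CPM in XBP1-KO, with overlap. Oas1a was much steadier in WT, at 137, 141 and 144 CPM, and had 161, 170 and 127 CPM in XBP1-KO. Oas3 and Oasl1 were lower in level, at 12.6 to 20.8 and 5.12 to 13.6 CPM over the 6 libraries, and Oasl2 ran from 72.9 to 117 CPM. Of the remaining effectors, Eif2ak2 (PKR), the kinase that stops translation on double-stranded RNA, had 37.0, 62.5 and 41.2 CPM against 41.0, 59.0 and 37.0 CPM. Its genotype means, 46.9 ± 13.7 and 45.7 ± 11.7 CPM (SD, n = 3), lay closer than any of its libraries b lay to its libraries a or c. Rsad2 (viperin), Isg20, an exonuclease, and Mx2 ran over the 6 libraries from 9.77 to 17.5, 5.51 to 8.91 and 1.68 to 3.07 CPM, with overlap for each. Mx1, a dynamin-like GTPase that is defective in C57BL/6 mice, ran from 62.7 CPM in XBP1-KO b to 95 CPM in XBP1-KO a, with a fold change of 1.02 (interval 0.779 to 1.33).

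The guanylate-binding proteins and immunity-related GTPases, which respond strongly to interferon gamma and act on vacuoles that hold microbes, held 1 gene near the unadjusted threshold. Gbp2 had 202, 165 and 235 CPM in WT and 190, 117 and 150 CPM in XBP1-KO, with overlap through WT b (fold change 0.76, interval 0.576 to 1, unadjusted p of 0.0511). Gbp3, its neighbour on chromosome 3, had 182, 120 and 195 CPM against 199, 93.2 and 146 CPM. Both were lowest in library b of each genotype. Igtp and Ifi47 varied little, at 50.2 to 58.5 and 89.3 to 109 CPM over all 6 libraries, and Irgm1 ran from 116 to 168 CPM. Of the PYHIN genes on chromosome 1, relatives of the DNA sensor AIM2, Ifi203 had 182, 207 and 193 CPM in WT and 177, 172 and 203 CPM in XBP1-KO. The PYHIN, OAS, IFIT, GBP and Mx genes have close relatives, and how shared reads were divided among them is not stated in the labels. The last genes were Trim30a, which dampens Toll-like receptor signalling, at 139 to 227 CPM, Ifi35 at 116 to 143 CPM, Ifi44 at 0.706 to 4.79 CPM and Xaf1, an antagonist of the apoptosis inhibitor XIAP. Xaf1 had 44.9, 43.2 and 42.7 CPM in WT and 48.5, 47.8 and 48.0 CPM in XBP1-KO, a small difference without overlap (fold change 1.1, interval 0.908 to 1.34).

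Levels per length, as CPM per kb of exon in GENCODE M21, put Ifngr1 first in WT at 281 ± 21.4 (SD, n = 3), above all other members by more than its spread. Ifi205 followed at 99.4 ± 68.5, Ifi35 at 92.0 ± 4.59, Gbp2 at 79.7 ± 13.7 and Oas1a at 74.7 ± 1.80, and none of these 4 differed from the next in the order beyond their spread. The lowest were Oas3 at 3.29 ± 0.833, Mx2 at 1.02 ± 0.221 and Ifi44 at 0.868 ± 0.666 CPM per kb. Isg15 stood at rank 28 of 39, at 7.82 CPM per kb. In levels per length the type I receptor chains differed, with Ifnar1 at 49.1 ± 7.08 and Ifnar2 at 6.65 in WT, and 52.2 ± 4.64 and 8.73 in XBP1-KO.

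**Figure D3:**
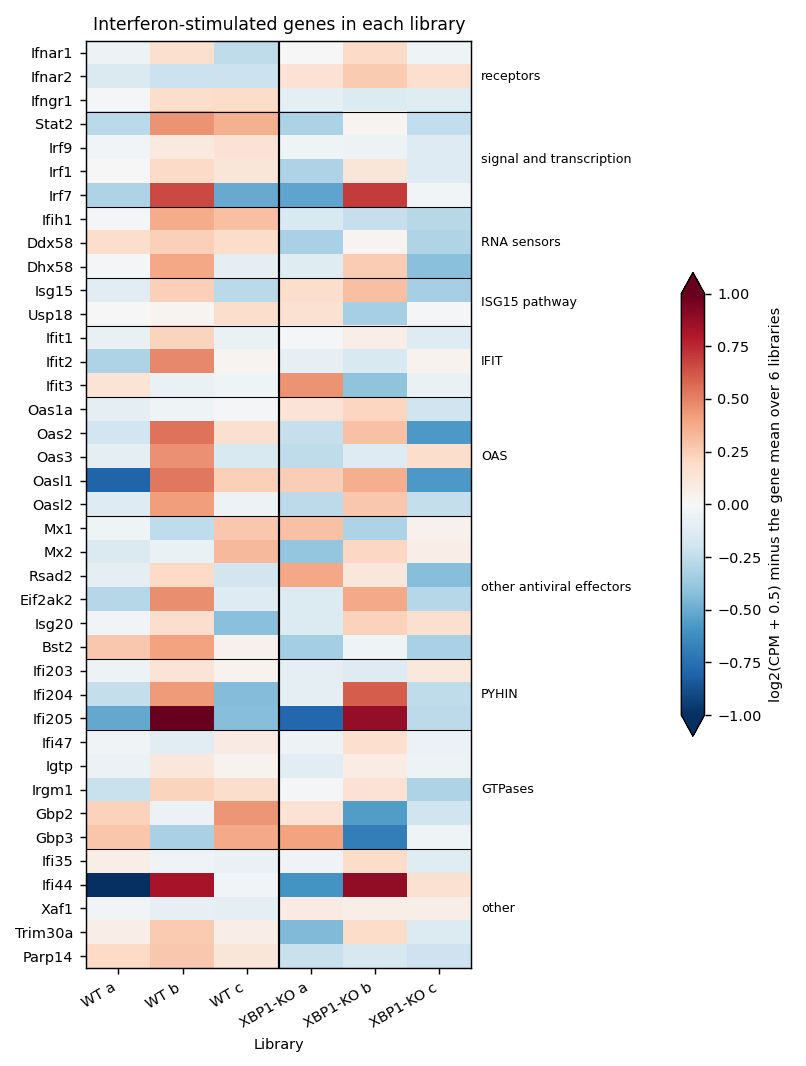
Level of each of the 39 genes (rows, grouped by role) in each library (columns), as log2(CPM + 0.5) minus the gene's mean over the 6 libraries, with colours capped at -1 and 1. Columns WT b and XBP1-KO b are red for most genes, such as Irf7, Ifi204, Ifi205 and Ifi44, while Gbp3 and Mx1 are blue in both.

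Interferon genes varied together between libraries in a way that did not follow genotype. Library b had the highest value of its genotype for 26 of the 39 genes in WT and also for 26 in XBP1-KO, against 40% and 35% of all genes, and for 21 genes in both (53.8%, against 18.9% of all genes). The lowest value was in library b of both genotypes for 4 genes, Mx1, Gbp2, Gbp3 and Ifit3 (10.3%, against 17.1% of all genes). Ifi205, a PYHIN gene, had 93.5, 288 and 99.4 CPM in WT and 77.5, 247 and 111 CPM in XBP1-KO. Ifi204, its relative, had 140, 222 and 122 CPM in WT and 154, 251 and 138 CPM in XBP1-KO. In these, as in Irf7 and Eif2ak2 above, library b of both genotypes stood above the other 4 libraries. Oasl2 had 80.3, 117 and 84.5 CPM in WT and 72.9, 106 and 74.1 CPM in XBP1-KO, with the same order. Ifi44, at a low level, had 0.706, 4.57 and 2.30 CPM and 1.39, 4.79 and 2.67 CPM.

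**Figure D4:**
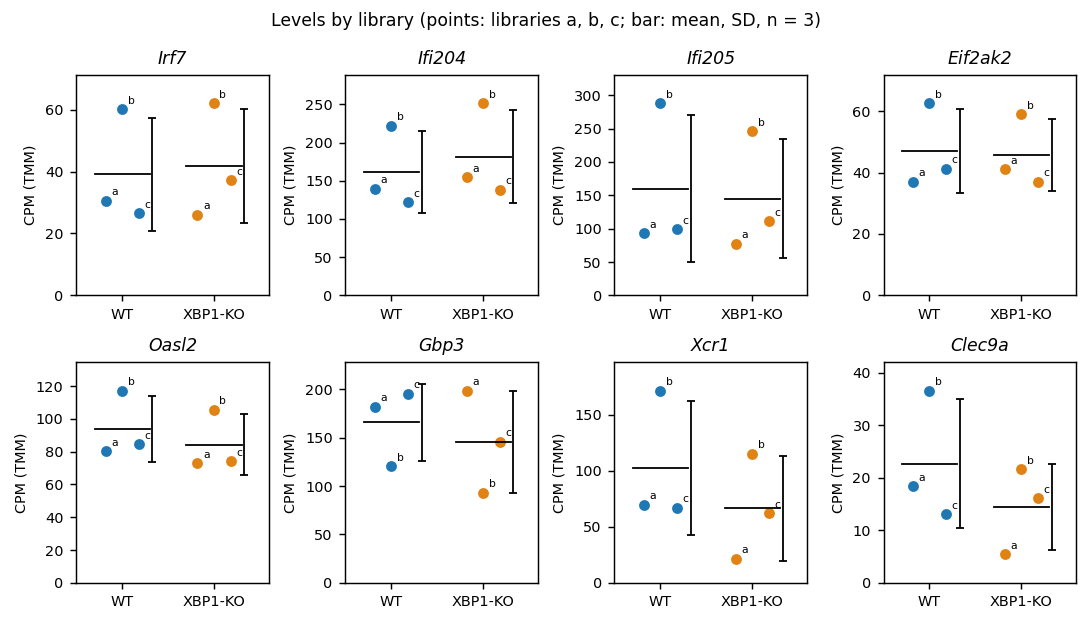
Normalised levels (y axes, CPM after TMM scaling, from 0) of 6 interferon genes and of Xcr1 and Clec9a by genotype. Points are libraries, labelled a, b and c, horizontal bars the means and error bars the SD (n = 3). Library b is the highest of its genotype for 7 of the genes and the lowest for Gbp3.

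The shift of library b was measured in each genotype as its log2(CPM + 0.5) minus the mean of libraries a and c. For Ifi205 it was 1.57 in WT and 1.40 in XBP1-KO, for Ifi44 1.46 and 1.11, for Irf7 1.06 and 0.98, and for Gbp3 -0.65 and -0.87. The median shift over the 39 genes was 0.23 in WT and 0.22 in XBP1-KO, against 0.03 and -0.004 over all genes. Across the 39 genes, which are not independent replicates, the shifts in WT and XBP1-KO had a Pearson correlation of 0.83 and a Spearman correlation of 0.66, against 0.32 and 0.30 across all 15958 genes. Without Ifi205 and Ifi44, the genes farthest from the median shift in WT, these were 0.75 and 0.60. The 2 shifts share no library. They come from libraries chosen because they stood apart over all genes, so they are a description with no test. Of the 11 dendritic cell markers 3 were highest in library b of both genotypes, Zbtb46, Xcr1 and Clec9a, and 3 were lowest there, Cd209a, Irf4 and Cd74. Xcr1 and Clec9a, which mark the cross-presenting type 1 dendritic cells, stood out most there, with 69.4, 171 and 66.8 CPM for Xcr1 in WT and 21.6, 115 and 62.1 CPM in XBP1-KO. Clec9a had 18.4, 36.6 and 13.1 CPM and 5.45, 21.6 and 16.1 CPM. Batf3, a factor of the same cells, went another way, with 25.9, 33.3 and 38.5 CPM and 45.6, 20.9 and 38.0 CPM, so that XBP1-KO b was the lowest of its genotype. All 6 NK cell markers were highest in library b of both genotypes, as was 1 of 7 T cell markers. Other lists went the other way or were mixed. Of 7 epithelial markers of ID8 cells 0 were highest and 4 lowest in both libraries b, and of 5 B cell markers 0 and 3. For 9 macrophage markers these numbers were 1 and 3, and for 5 neutrophil markers 1 and 2. They were 1 and 1 both for 8 plasmacytoid dendritic cell markers and for 5 monocyte markers. The part of these markers in the shift was not tested.

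**Figure D5:**
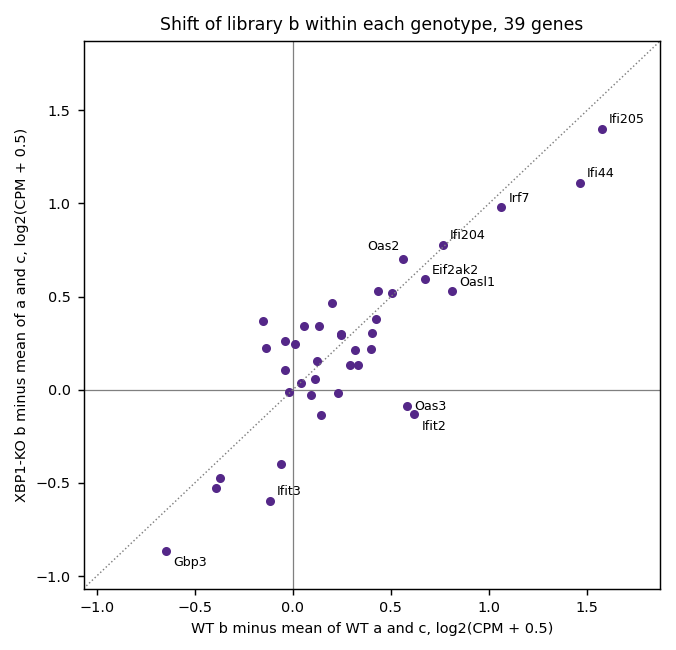
Shift of library b from the mean of libraries a and c in log2(CPM + 0.5), in WT (x axis) and XBP1-KO (y axis), for the 39 genes (points), with the line of equality dotted. Of the points 24 lie above 0 on both axes and 6 below 0 on both, with Ifi205 at the upper right and Gbp3 at the lower left.

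When edgeR was fitted with a term that sets both libraries b against the rest, an analysis added after the libraries had been seen, 2.67% of all genes were called and still 0 of the 39. The term was chosen from the same values that it was fitted to, so the p-values of this fit can be too small. At an unadjusted p under 0.05 there were then 10 of the 39 (25.6%), 9 of them lower, against 17.8% of all genes. The smallest adjusted p of the 39 was that of Bst2, at 0.0852. Most genes called in this fit lay lower as well, 333 of 426. In the other 4 libraries alone 0 of the 39 were called, and 6 (15.4%) had an unadjusted p under 0.05, all lower, against 16.1% of all genes. Of the 70 genes called there, 57 lay lower. The shares of all genes, 17.8% and 16.1%, count both directions together. The share of all genes that lay lower at this cut was not taken in either fit. Whether the 39 leaned lower more than all genes there is therefore not shown.

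The rest of the pathway was read from 119 further genes, of which 111 matched a row and 102 were tested. None of the 102 was called in edgeR or by limma-voom, and 6 were called by DESeq2, which called 465 of all genes. In edgeR 61 lay lower (59.8%, against 43.9% of all genes), and 21 had an unadjusted p under 0.05 (20.6%, against 12.9% of all genes). Of these 17 lay lower and 4 higher, where of all genes 8.26% passed this cut as lower and 4.59% as higher. Interferon genes themselves were hardly detected. Ifnb1 had 6, 5 and 13 counts in WT against 3, 3 and 0 in XBP1-KO. The interferon alpha gene Ifna4 went the other way, with 1, 2 and 0 counts against 6, 9 and 5. So did Il28b (Ifnl3), with 0, 0 and 0 counts against 4, 1 and 2. Ifna1, Ifna2 and Ifna5 had at most 4 counts in a library. All of these were too low in counts to be tested. Ifng had 0.353, 1.24 and 0.568 CPM in WT and 0.769, 2.16 and 0.425 CPM in XBP1-KO, with overlap and with library b again the highest of each genotype. Of the tested ligands Ifnk and Il27 had the smallest p, with 0.674 ± 0.179 against 0.343 ± 0.122 CPM and 0.427 ± 0.064 against 0.693 ± 0.151 CPM (SD, n = 3), and neither passed.

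Tyk2 and Znfx1, described here and below, had the smallest adjusted p of these 102 genes. Tyk2, the kinase bound to IFNAR1, had 82.7, 119 and 102 CPM in WT and 63.1, 47.4 and 62.4 CPM in XBP1-KO. All XBP1-KO libraries lay below all WT libraries, with a fold change of 0.568 (interval 0.444 to 0.727) and an adjusted p of 0.053 in edgeR. The call of Tyk2 depended on the setting, since it passed in 6 of 17 alternatives. Among them were DESeq2 (0.00132), the fit without WT a (0.0472) and the fit with the term for both libraries b (0.0278). Between the libraries b its log2 difference was -1.32, and between the other 4 -0.55. Pias1, a SUMO ligase that dampens interferon signalling, had a mean of 278 ± 31.1 CPM (SD, n = 3) in WT against 236 ± 4.06 CPM. Of the IRF family 7 of 8 lay lower. Irf5, which acts downstream of Toll-like receptors, had 203, 260 and 241 CPM in WT and 195, 162 and 185 CPM in XBP1-KO, without overlap (adjusted p of 0.246) and with log2 differences of -0.68 between the libraries b and -0.22 between the other 4.

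Of 17 genes of nucleic acid sensing outside the list, 14 lay lower (82.4%, against 43.9% of all genes) and 5 had an unadjusted p under 0.05, all lower (29.4%, against 8.26% of all genes). Mavs, the mitochondrial adaptor on which RIG-I and MDA5 converge, had 45.7, 55.7 and 62.1 CPM in WT and 36.8, 39.5 and 34.7 CPM in XBP1-KO. Its ranges did not overlap, with a fold change of 0.678 (interval 0.541 to 0.85) and an adjusted p of 0.118 in edgeR, and it passed with DESeq2 alone (0.0408). Ticam1 (TRIF), the adaptor of Toll-like receptor 3, had 24.9, 30.7 and 46.1 CPM against 14.4, 18.4 and 23.7 CPM, with an adjusted p of 0.157, and it too passed with DESeq2 alone (0.0258). Of 64 other tested interferon-stimulated genes 33 lay lower and 31 higher. Znfx1, a helicase that senses RNA at mitochondria, had 49.1, 57.7 and 59.0 CPM in WT and 32.2, 35.6 and 34.7 CPM in XBP1-KO, without overlap. Its fold change was 0.619 (interval 0.502 to 0.763) with an adjusted p of 0.0528 in edgeR. Znfx1 passed in 4 of 17 alternatives, among them the fit with the term for both libraries b. Cd69, an early activation marker of lymphocytes that interferon also induces, had 9.47, 11.6 and 7.78 CPM in WT and 17.2, 16.9 and 18.8 CPM in XBP1-KO (adjusted p of 0.0785 in edgeR). Cd69 passed in 3 of 17 alternatives, among them the fit with the term for both libraries b. Its log2 difference was 0.52 between the libraries b and 1.03 between the other 4. Ly6a, also called by DESeq2 (0.00753), had the largest rise of the 102 genes. It had 33.2, 18.4 and 24.0 CPM in WT and 45.7, 40.8 and 56.5 CPM in XBP1-KO, without overlap. Its fold change was 1.89 (interval 1.38 to 2.60) with an adjusted p of 0.0854 in edgeR. The summed T and NK cell markers given above also lay higher in all 3 XBP1-KO libraries. Their part in the levels of Cd69 and Ly6a was not tested.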

How the data were processed

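Whole-number counts per gene symbol in 6 libraries were used as the authors deposited them. RSEM and edgeR, without version or role, and the build mm9 are named per the submitters' processing notes, while aligner, annotation and strand setting were not given in any source used. A second deposited table gives CPM values of 13946 genes, which equalled the counts divided by library totals (largest difference 5.1e-11). All columns were used.

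Genotypes were compared by edgeR (version 4.0.16, R version 4.3.3; filterByExpr defaults, TMM, robust quasi-likelihood F test on genotype, two-sided), with Benjamini-Hochberg adjustment over the 15958 genes tested and a threshold of 0.05. Intervals rest on a standard error taken as log2 fold change over root F. CPM in the text is TMM-normalised. The test was checked on simulated data. Alternatives were DESeq2 1.42.0, limma-voom 3.58.1, other scalings and filters, limma on log2(CPM + 1) and log2(CPM + 0.1) of the deposited CPM, and libraries left out. The common biological coefficient of variation was 0.25. The spread between libraries, not the depth, limits precision except for genes of a few counts.

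Genes and lists were chosen with earlier results of these data known. By rule, values are given for genes with an unadjusted p under 0.05, the smallest p of each role, and in the other lists the called or otherwise the 2 with the smallest p. Other genes were named after their values were seen. A gene the rule names is not reported here. Names were matched through RefSeq GRCm38.p6, whose build is not that of the counts. Exon lengths are unions of GENCODE M21 exons on GRCm38.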

Additional observations from a re-analysis of the deposited data

How the results depend on the processing

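No paired analysis was possible because the table columns carry no replicate number. None of the 39 genes passed in any of 17 alternatives, while 18 of them (14 lower, 4 higher) kept their direction in all and the other 21 turned in at least 1. The number of all genes called, 71, became 25 with library size alone, 252 with no filter, 465 with DESeq2 and 47 with limma-voom. It was 25 and 13 with limma on log2(CPM + 1) and log2(CPM + 0.1), and 426 with the term for both libraries b. With 1 library left out it ran from 5 (without WT c) to 154 (without XBP1-KO b). Members with an unadjusted p under 0.05, 5 at first, were 3 (7.69%, against 14.4% and 14.3% of all genes) in the analyses of deposited CPM. They were 10 (25.6% against 17.8%) with the term for both libraries b. With 1 library left out they were 3 (7.69% against 11.3%, without XBP1-KO c) to 8 (20.5% against 13.7%, without XBP1-KO b). Other interferon genes called were 1 with DESeq2 size factors, 4 with no filter, 2 with CPM above 1 and 6 with DESeq2. They were 4 with the term for both libraries b, and 0 to 2 (without WT a) with 1 left out. The cause of these changes was not tested. Log2 fold changes that turned sign were, with upper quartile scaling, 0.033 for Oasl1 and 0.016 for Eif2ak2, and with library size alone 0.0027 for Ifi203, 0.0084 for Ifit1, 0.037 for Oasl1, 0.013 for Mx2, 0.026 for Eif2ak2 and 0.0204 for Igtp. With limma-voom they were -0.027 for Ifit3 and 0.0081 for Oasl1. On log2(CPM + 1) they were 0.00396 for Ifi203, 0.021 for Ifit1, 0.091 for Oasl1, 0.049 for Eif2ak2 and 0.022 for Igtp, and on log2(CPM + 0.1) 0.00399, 0.022, 0.11, 0.05001 and 0.022. Without both libraries b they were 0.089 for Ifit2, 0.0017 for Ifi203, 0.09015 for Oas3, 0.062 for Oasl1, -0.1003 for Ifi47 and -0.098 for Ifi35. With the term for both libraries b the value was -0.0038 for Ifit3. With 1 library left out the values ran from -0.31 to 0.52 for Irf7, -0.31 to 0.93 for Ifi44, -0.77 to 0.56 for Ifi205, -0.15 to 0.44 for Ifi204, -0.28 to 0.19 for Eif2ak2, -0.34 to 0.24 for Oasl1 and -0.37 to 0.0042 for Oasl2. Those of other genes ran from -0.31 to 0.046 for Oas3, -0.12 to 0.016 for Ifit1, -0.35 to 0.037 for Ifit2, -0.25 to 0.19 for Ifit3, -0.045 to 0.27 for Isg15 and -0.13 to 0.17 for Mx1. The last ran from -0.25 to 0.11 for Mx2, -0.12 to 0.26 for Rsad2, -0.051 to 0.094 for Ifi47, -0.0799 to 0.065 for Ifi35, -0.011 to 0.17 for Ifnar1 and -0.47 to 0.037 for Gbp3. The spread between libraries limits these values, and depth does so only for genes of few counts, such as the interferon genes themselves.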
